A study of Oryctolagus cuniculus with 6 samples.

Results

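A cassette exon is an internal exon that some transcripts of a gene include and others skip. Where its length is a multiple of 3 and it lies in the coding sequence, both forms keep the same reading frame, so that skipping removes a stretch of amino acids and leaves the rest of the protein readable. An exon of another length shifts the frame when it is skipped and often brings in an early stop codon, which can send the transcript into nonsense-mediated decay. Splicing factors set the choice between these forms in a way that differs between tissues, and the shortest cassette exons, called microexons, are best known from nervous tissue.

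The exons described here were taken from RNA sequencing of rabbit skin (Oryctolagus cuniculus) at an age of 30 days, with 3 Prss53-/- libraries and 3 wild type libraries. The treatment field of all 6 libraries, wild type included, reads CRISPR/Cas9. The sources used here do not give the sequence of the mutant allele or the number of founders. Nor do they state that the libraries of a genotype are from different animals, so a p-value refers to the spread of these libraries alone, which may be a technical spread. Per the file headers each library has 1 table of transcript events, with the FPKM that the authors computed for each event, FPKM being the fragments of a transcript scaled to its length and to the mapped fragments of the library. No sequencing depth and no genome build come with the tables, so positions are those of the files with no build attached.

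An exon was taken when 1 event listed it as included and another event of the same locus, with the same flanking splice sites, listed it as skipped. Each form had to be seen in at least 1 of the 6 libraries, and the exon's length had to be divisible by 3. This gave 2621 frame-preserving exons out of 5314 cassette exons with both forms, in a series of 76612 transcript events at 15280 loci. They were 2494 distinct exons at 1850 loci, since 113 exons were listed between several pairs of flanking sites and entered once for each pair. Of the 2621, 2060 lay on numbered chromosomes or the X chromosome and 561 on unplaced scaffolds, and 2452 belonged to a locus with an Ensembl gene ID. The files do not pair these IDs with gene names and 0 of the 12276 IDs matched the RefSeq gene table used here, so exons are named by position, and neither the skin's cell type markers nor Prss53 itself was checked. Whether an exon is coding is also not annotated in the files.

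Lengths divisible by 3 made up 49.3% of the 5314 cassette exons, and the 2 other classes of length, which leave 1 or 2 bases over, made up 25.2% and 25.5%. The balance changed with length. Of the exons of 3 to 27 bases, 143 were frame-preserving and 32 frame-shifting, which is 81.7% frame-preserving. Among exons of 28 to 51 bases the share was 65.4% (348 against 184), among those of 52 to 99 bases 49.1%, and above 1000 bases 37.8% (56 against 92). The frame-preserving exons had a median length of 102 bases with quartiles at 63 and 156 bases, and the frame-shifting exons a median of 118 bases with quartiles at 79 and 170 bases. The shortest frame-preserving exon was listed with 3 bases and the longest with 9450. These are counts of assembled events, and no test of the difference between the 2 kinds of exon was made.

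**Figure D1:**
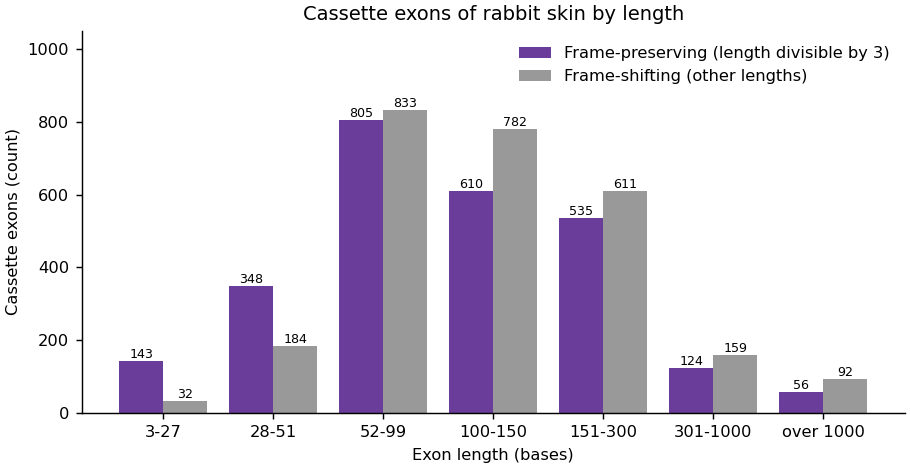
Number of cassette exons with both forms (vertical axis) by exon length in bases (horizontal axis), frame-preserving exons in purple and frame-shifting exons in grey. Frame-preserving exons outnumber the others up to 51 bases (143 against 32 and 348 against 184) and are outnumbered from 52 bases upwards.

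Inclusion was computed per library as the FPKM of the included form divided by the FPKM of both forms together. A form that a library does not list entered as 0, and whether it was absent or not assembled cannot be told apart. No listed value is 0. Between 1072 and 1271 of the 2621 exons had both forms listed in a given library, the lowest number being that of Prss53-/- replicate 3 and the highest that of wild type replicate 2. Both forms were listed in all 6 libraries for 480 of the 2621 frame-preserving exons (18.3%) and for 206 of the 2693 frame-shifting exons (7.65%). At the other end, 270 frame-preserving exons (10.3%) had no library that listed both forms, and 842 (32.1%) had 1 such library.

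Inclusion could be compared across libraries for 1781 of the 2621 exons, those whose 2 forms summed to at least 1 FPKM in each library. The other 840 missed this level minimum in at least 1 library and entered no test. Mean inclusion over the 6 libraries lay under 10% for 464 of the 1781 exons and over 90% for 451, while 529 (29.7%) lay between 20% and 80%. Of the 1592 frame-shifting exons at the same level, 272 (17.1%) lay between 20% and 80% and 615 (38.6%) over 90%. Frame-preserving exons were also more abundant, with a median level of both forms together of 7.56 FPKM against 6.07 FPKM for frame-shifting exons. Within a band of level the order of the shares was kept. At a median level of 1 to 5 FPKM, 27.3% of frame-preserving and 18.2% of frame-shifting exons lay between 20% and 80%, at 5 to 20 FPKM it was 29.6% and 15.3%, and from 20 FPKM upwards 35.1% and 22.0%. The order was the other way among tested exons with both forms listed in all 6 libraries, of which 75.6% of the frame-preserving (360 of 476) and 80.4% of the frame-shifting (164 of 204) lay between 20% and 80%.

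**Figure D2:**
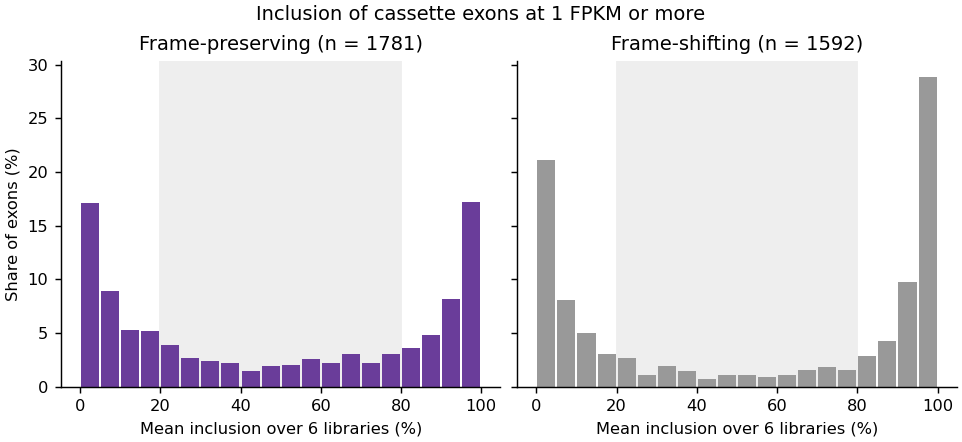
Share of exons (vertical axis, %) by mean inclusion over the 6 libraries (horizontal axis, %, in steps of 5), for 1781 frame-preserving exons on the left and 1592 frame-shifting exons on the right, with the range from 20% to 80% shaded. The shaded range holds 29.7% of the frame-preserving and 17.1% of the frame-shifting exons.

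Short frame-preserving exons were mostly skipped and those of 100 to 300 bases mostly included. The median of mean inclusion was 23.4% for the 106 tested exons of 3 to 27 bases, 26.7% for 28 to 51 bases, 38.8% for 52 to 99 bases, 61.9% for 100 to 150 bases and 74.0% for 151 to 300 bases. It was 55.0% for 301 to 1000 bases (59 exons) and 12.1% above 1000 bases (27 exons). The rise from 28 to 300 bases was not particular to these exons. For frame-shifting exons the same medians were 39.9%, 51.5%, 81.6% and 83.8% in these 4 classes, and 46.6% and 7.45% in the 2 longer ones. The 20 tested frame-shifting exons of 3 to 27 bases were at 63.1%. Among frame-preserving exons the order from 52 to 300 bases was the same in each of the 6 libraries. The 2 shortest classes kept their order in 5 libraries and not in wild type replicate 3 (27.3% for 3 to 27 bases and 25.9% for 28 to 51 bases). In the shortest class the library medians were 26.5%, 29.9% and 19.5% in Prss53-/- skin and 23.2%, 26.7% and 27.3% in wild type skin, so the genotypes overlapped. Above 1000 bases they were 12.5%, 20.5% and 19.9% in Prss53-/- skin against 0%, 11.3% and 0% in wild type skin, which do not overlap and rest on 27 exons. The medians of 0% come from included forms that the library did not list. In every other length class the genotypes overlapped. They overlapped also for the 35 tested frame-shifting exons above 1000 bases. Those medians were 3.78%, 0% and 0% in Prss53-/- skin and 0%, 0% and 9.49% in wild type skin.

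**Figure D3:**
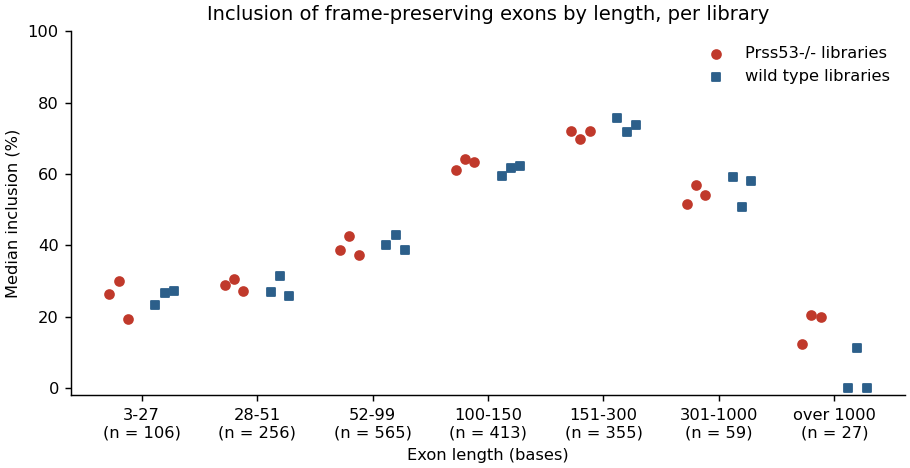
Median inclusion (vertical axis, %) of the tested frame-preserving exons in classes of length (horizontal axis, bases, with the number of exons), 1 point per library, Prss53-/- as red circles left of wild type as blue squares. Library medians range from 19.5% to 29.9% in the shortest class and from 69.7% to 75.6% at 151 to 300 bases. Above 1000 bases they range from 0% to 20.5%.

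Where they are coding, exons of 27 bases or fewer hold at most 9 codons. The shortest that passed the level minimum with a mean inclusion between 10% and 90% was a 12-base exon on scaffold GL018914, from 208220 to 208231. It was included at 64.7% in Prss53-/- replicate 1 and its included form was not listed in the other 5 libraries, where the skipped form had 11.0 to 26.3 FPKM. On chromosome 18, an exon of 15 bases from 8410755 to 8410769 on the plus strand was the most abundant of the 6 shortest, with 39.0 to 167 FPKM of both forms together. Its inclusion was 32.2%, 17.4% and 32.1% in Prss53-/- skin and 51.9%, 49.7% and 54.4% in wild type skin. Both forms of 4 further exons of 18 bases were listed in every library. The one on chromosome 11 from 81806930 to 81806947 was included at 66.4%, 66.1% and 40.6% in Prss53-/- skin and 66.6%, 53.9% and 54.2% in wild type skin, which overlap. The chromosome 12 exon from 46437094 to 46437111 averaged 70.9% ± 9.65 in Prss53-/- skin and 70.3% ± 15.6 in wild type skin (SD, n = 3 each). On chromosome 2, the exon from 37100918 to 37100935 averaged 56.6% ± 4.77 in Prss53-/- skin and 45.4% ± 13.3 in wild type skin (SD, n = 3 each). The other chromosome 2 exon, from 93609257 to 93609274, was at 16.6%, 16.4% and 8.22% in Prss53-/- skin and 30.2%, 31.0% and 23.6% in wild type skin, which do not overlap (limma adjusted p = 0.648).

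The 4 longest exons by the same rule averaged between 12.1% and 33.1% inclusion. On chromosome 1, an exon of 6642 bases from 70652856 to 70659497 was included at 19.7%, 33.8% and 19.9% in Prss53-/- skin, and its included form was not listed in wild type skin. Its level was low, at 1.65 to 2.67 FPKM of both forms together, and it was not called (limma adjusted p = 0.276). A 3696-base exon on scaffold GL018920, from 136135 to 139830, was at 16.2% ± 2.74 in Prss53-/- skin and 7.97% ± 6.93 in wild type skin (SD, n = 3 each). Wild type replicates 1 and 2 were at 12.6% and 11.3%. In wild type replicate 3 its included form was not listed while the skipped form had 44.2 FPKM. The chromosome 9 exon of 3315 bases, from 15801334 to 15804648, was at 19.3% ± 10.6 in Prss53-/- skin and 10.4% ± 10.7 in wild type skin. Its included form was also not listed in wild type replicate 3, with 9.81% and 21.4% in wild type replicates 1 and 2. The chromosome 11 exon of 2952 bases, from 3752647 to 3755598, was at 32.3% ± 4.95 in Prss53-/- skin and 33.8% ± 3.45 in wild type skin. The genotypes overlap at the last 2.

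Among the 8 most abundant exons with a mean inclusion of 20% to 80%, the SD between wild type libraries was 0.316 to 4.63 points in 7 exons and 12.9 points in the other. Between Prss53-/- libraries it was 0.706 to 22.5 points. The highest of all was a 42-base exon on scaffold GL018786, from 343538 to 343579 on the minus strand, with a median of 304 FPKM over both forms. It was included at 71.6%, 72.2% and 66.8% in Prss53-/- skin and 73.6%, 76.3% and 74.2% in wild type skin. These values do not overlap, and the exon was not called (limma adjusted p = 0.648). The next, of 114 bases on chromosome 1 from 152592522 to 152592635, followed with a median of 220 FPKM. Its inclusion was 68.9%, 65.8% and 60.7% in Prss53-/- skin, and the wild type libraries at 62.4%, 62.7% and 63.0% lay inside that range. The 54-base exon of chromosome 14, from 155085778 to 155085831, was at 30.3%, 25.9% and 30.9% in Prss53-/- skin and 38.1%, 36.9% and 36.4% in wild type skin. Here too the groups did not overlap, but the difference of -8.08 points has a moderated standard error of 8.04 and was not called (limma adjusted p = 0.648). The 153-base exon of chromosome 4, from 38040186 to 38040338, was at 24.7%, 23.6% and 27.8% in Prss53-/- skin and at 23.1% and 21.4% in wild type replicates 1 and 3. In wild type replicate 2 its included form was not listed while the skipped form had 95.4 FPKM. The groups did not overlap at this exon either, and it was not called (limma adjusted p = 0.648).

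A single locus on scaffold GL018719 held 3 of the 8 most abundant exons of this kind, of 84 bases (561063 to 561146), 78 bases (561522 to 561599) and 81 bases (566608 to 566688). The first 2 are neighbours, since the right flank of the 84-base exon is the start of the 78-base exon at 561522. The included form of the 78-base exon had the same FPKM in every library as the skipped form of the 84-base exon, as both use the junction from 555797 to 561522 (43.4, 65.6 and 18.5 FPKM in Prss53-/- skin and 62.8, 74.1 and 67.6 FPKM in wild type skin). The 84-base exon was included at 60.9%, 37.5% and 33.7% in Prss53-/- skin and at 68.9%, 59.7% and 64.4% in wild type skin, which overlap. For the 81-base exon the values were 32.5%, 30.1% and 40.3% in Prss53-/- skin and 43.9%, 37.1% and 38.7% in wild type skin. The level of both forms of the 81-base exon was 169, 165 and 31.0 FPKM in Prss53-/- skin and 249, 253 and 250 FPKM in wild type skin. Prss53-/- replicate 3 was thus far below the other 5 libraries at this locus. In bulk skin, fewer cells that express a gene and less RNA per cell cannot be told apart.

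Several loci held arrays of frame-preserving exons of 1 length. On scaffold GL019066 a minus-strand locus without an Ensembl ID held 8 distinct exons between 141811 and 153265, each of 264 bases, and another minus-strand locus on it between 169449 and 194382 held 8 exons of 276 bases each. They accounted for 11 and 12 of the exon and flank combinations, since an exon of the array can be listed between several pairs of flanks. Levels were low, with medians of both forms together of at most 7.69 and 3.20 FPKM, and 3 and 1 of the combinations passed the level minimum. On chromosome 7, a minus-strand locus held 7 exons of 93 bases from 90500925 to 90510276, and another held 3 exons of 84 bases from 118351775 to 118377107. In all, 28 loci held at least 2 distinct frame-preserving exons of equal length, out of 433 loci with more than 1 frame-preserving exon. Among frame-shifting exons it was 14 of 444 loci, and none of these held 3 of equal length. By the rule of choice, frame-preserving exons have fewer possible lengths than frame-shifting exons, so equal lengths are likelier among them. These counts were not tested against each other. Whether the exons of an array also resemble each other in sequence was not tested.

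A chromosome 9 locus between 24687111 and 24749839 also reached 12 combinations, from 5 exons of 51, 51, 63, 90 and 123 bases. Its 2 exons of 51 bases, 491 bases apart, were listed as alternatives between the same flanks. They were also listed joined to each other, the exon from 24687197 having its right flank at 24687739, the start of the other. In that combination, which missed the level minimum, both forms were listed in all 6 libraries and mean inclusion was 46.9%. The 63-base exon was included at 46.8%, 31.6% and 23.0% in Prss53-/- skin and 16.7%, 19.8% and 11.6% in wild type skin when measured against the longest skip. These values do not overlap, and the exon was not called. Between the flanks 24687789 and 24708521, where it missed the level minimum, the same exon was at 79.0%, 33.2% and 74.0% in Prss53-/- skin and 28.4%, 100% and 100% in wild type skin, which overlap and differ on average in the other direction. The 123-base exon (24729390 to 24729512) averaged 87.1% over the 6 libraries and the 90-base exon (24748380 to 24748469) 78.3%. The locus with 10 combinations was on chromosome 18 between 44033766 and 44138646 and held 10 exons of 10 different lengths from 27 to 774 bases, with mean inclusion from 2.93% to 93.6%.

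Some exons differed only at 1 edge. Between the same flanks, 109 pairs of frame-preserving exons overlapped, and 28 of these shared 1 edge and differed by 3 bases at the other. By the rule of choice, frame-preserving exons that share an edge can differ only by a multiple of 3. Among frame-shifting exons, 25 of 192 overlapping pairs shared 1 edge and differed by 3 bases. In 12 of the 28 frame-preserving pairs both exons passed the level minimum. On scaffold GL018702 the 111-base exon from 3479475 to 3479585 and the 108-base exon that starts at 3479478 had mean inclusions of 42.9% and 61.8%, each against the same skipped form, and both were listed in all 6 libraries. On chromosome 1 a 102-base and a 99-base exon ending at 97874313 were included at 6.31% and 12.3%, at a level of 87.6 and 92.3 FPKM. The included form of the 102-base exon was not listed in wild type replicates 1 and 2, which lowers its mean. In Prss53-/- replicate 3 the order was the other way (10.1% and 6.42%). Another 39 pairs were separate frame-preserving exons between the same flanks, 11 of them of equal length. Among frame-shifting exons 5 of 54 separate pairs were of equal length. Here too the rule of choice leaves frame-preserving exons fewer possible lengths, which makes equal lengths likelier.

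Whether inclusion as a whole separated the genotypes depended on how exons were weighted. Averaged over the 1781 tested exons it was 48.6%, 49.4% and 49.1% in Prss53-/- skin and 48.6%, 49.1% and 48.4% in wild type skin, which overlap. Taken from the FPKM summed over these exons, so that abundant exons weigh more, it was 50.2%, 50.2% and 49.8% in Prss53-/- skin and 49.3%, 49.4% and 49.3% in wild type skin, which do not overlap. A 21-base exon on chromosome 18, from 9567491 to 9567511, weighs heavily in that sum, at 552 to 727 FPKM of both forms together. It was 21.7 points higher in Prss53-/- skin, was not called (limma adjusted p = 0.473) and had both forms listed in 4 libraries. How far the summed values rest on it was not tested. Plain averages overlapped also over exons at 5 FPKM or more, every exon with a defined inclusion and exons with both forms in all 6 libraries. The median difference, Prss53-/- minus wild type, was -0.0171 points over the frame-preserving exons, -0.246 points over the frame-shifting exons and -0.228 points over all 16309 elements tested. The quartiles of the differences of frame-preserving exons lay at -5.08 and 5.34 points, and 82 of the 1781 exons (4.60%) differed by more than 25 points, as did 7.91% of all elements. Among the 476 tested exons with both forms in all 6 libraries, the median absolute difference between 2 libraries was 7.15 to 7.81 points within Prss53-/-, 6.32 to 6.92 points within wild type and 7.01 to 8.55 points between the genotypes. The range between the genotypes thus overlaps that within Prss53-/- and lies above that within wild type. Prss53-/- replicate 3 stood apart from its group: it lay at least 25 points outside both other libraries of its genotype at 133 of the 1781 exons, against 81 and 65 exons in Prss53-/- replicates 1 and 2 and 62 to 67 in the wild type libraries.

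**Figure D4:**
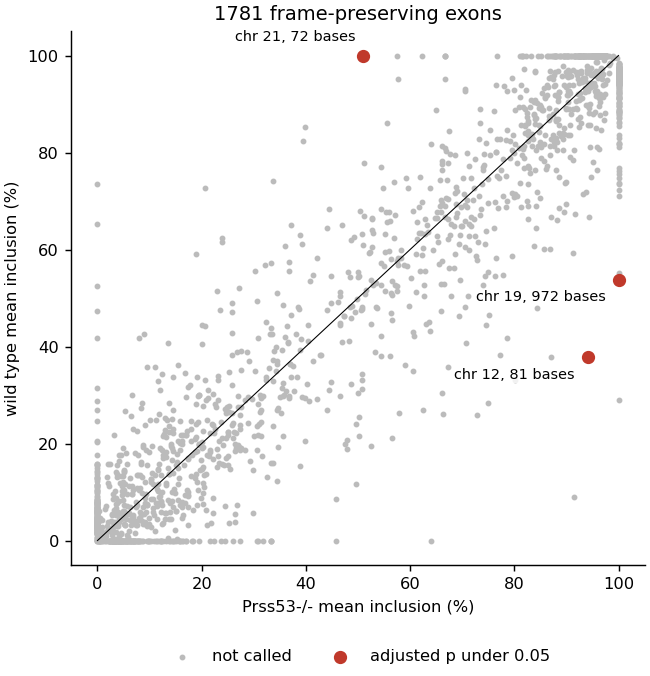
Mean inclusion (%) of 1781 frame-preserving exons in Prss53-/- skin (horizontal axis) and wild type skin (vertical axis), 1 point per exon, with equal inclusion on the line and the 3 called exons in red. Points scatter on both sides of the line, and the called exons lie 56.2 and 46.2 points below it and 49.0 points above it.

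To test single exons, limma was fitted to inclusion, with 1 Benjamini-Hochberg adjustment over all skipped exons, retained introns and alternative first and last exons. At an adjusted p under 0.05, 3 of the 1781 frame-preserving exons were called, or 0.168%, of which 2 were higher (0.112%) and 1 lower (0.0561%) in Prss53-/- skin. Over all elements 22 of 16309 were called (0.135%), with 0.0736% higher and 0.0613% lower, and among frame-shifting exons 1 of 1592 (0.0628%). At an unadjusted p under 0.05 there were 90 frame-preserving exons (5.05%), and 5.33% of all elements. The genotypes did not overlap at 178 frame-preserving exons (9.99%), 105 of them higher (5.90%) and 73 lower (4.10%) in Prss53-/- skin. The same held at 8.95% of all elements, with 4.32% higher and 4.63% lower, and at 7.35% of frame-shifting exons. The shares called and at an unadjusted p under 0.05 are thus close to those of the whole table. The count depended on the libraries: it was 15 without Prss53-/- replicate 1, 0 without replicate 2 and 22 without replicate 3, and 3, 11 and 24 without wild type replicates 1, 2 and 3.

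An 81-base exon on chromosome 12, from 23920946 to 23921026 on the minus strand (ENSOCUG00000002556), rose in Prss53-/- skin. Its included form had 1.56, 6.93 and 3.83 FPKM in Prss53-/- skin against 0.628, 1.92 and 1.63 FPKM in wild type skin, and its skipped form 0.117, 0.469 and 0.176 FPKM against 1.06, 3.14 and 2.61 FPKM. Every Prss53-/- library thus had more of the long form relative to the short one, with inclusions of 93.0%, 93.7% and 95.6% against 37.2%, 38.0% and 38.4%. The difference was 56.2 points with a standard error of 5.51 (limma adjusted p = 0.0422). A shorter version of the same exon, of 69 bases from 23920958, shares its end, its flanks and its skipped form. It was included at 89.0%, 92.6% and 92.8% in Prss53-/- skin and at 26.9%, 0% and 0% in wild type skin, and was not called (adjusted p = 0.0761). The level of the 81-base exon's 2 forms together did not separate the genotypes, at 1.68, 7.39 and 4.01 FPKM in Prss53-/- skin and 1.69, 5.07 and 4.24 FPKM in wild type skin. Leaving out 1 library at a time, the call was lost without Prss53-/- replicate 2 (limma adjusted p = 0.0557) and kept in the 5 other fits.

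A 972-base exon on chromosome 19, from 46322926 to 46323897 on the plus strand (ENSOCUG00000011386), also rose. Its skipped form was not listed in Prss53-/- skin, which puts inclusion at 100% in the 3 libraries, against 50.1%, 53.1% and 58.0% in wild type skin. The difference was 46.2 points with a standard error of 4.70 (limma adjusted p = 0.0468). The included form itself had 1.11, 2.35 and 1.71 FPKM in Prss53-/- skin and 0.844, 2.38 and 1.18 FPKM in wild type skin, which overlap, while the skipped form had 0.839, 2.10 and 0.855 FPKM in wild type skin. The difference therefore lay in the listing of a skipped form at about 1 to 2 FPKM. Leaving out 1 library at a time, this call was kept in 4 fits and lost without Prss53-/- replicate 2 and without wild type replicate 1 (limma adjusted p of at most 0.0557).

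A 72-base exon on chromosome 21, from 3549778 to 3549849 on the plus strand (ENSOCUG00000011904), fell, and it was the only called frame-preserving exon at a level above 10 FPKM. Its included form had 11.1, 11.6 and 16.3 FPKM in Prss53-/- skin against 25.6, 23.0 and 29.1 FPKM in wild type skin. The skipped form had 13.2, 8.87 and 15.8 FPKM in Prss53-/- skin and was not listed in wild type skin. Inclusion was 45.6%, 56.7% and 50.7% against 100% in each wild type library, a difference of -49.0 points with a standard error of 5.15 (limma adjusted p = 0.0487). The 2 forms together had 24.3, 20.5 and 32.1 FPKM in Prss53-/- skin and 25.6, 23.0 and 29.1 FPKM in wild type skin, which overlap. The exon is followed by an intron of 81 bases and preceded by one of 568 bases. With 1 library left out, it was kept in 3 fits and lost without Prss53-/- replicate 2, wild type replicate 1 or wild type replicate 2 (limma adjusted p of at most 0.0557).

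Beyond these calls, the genotypes did not overlap at 61 of the 334 frame-preserving exons with both forms in all 6 libraries at 5 FPKM or more (18.3%), 36 of them higher (10.8%) and 25 lower (7.49%) in Prss53-/- skin. Over all elements of this kind 10.1% were higher and 9.97% lower. The 6 exons in each direction with the largest differences were not called, with adjusted p from 0.226 to 0.648. A 99-base exon of scaffold GL018928, from 170184 to 170282, had the largest positive difference, with 56.3%, 42.7% and 70.4% in Prss53-/- skin against 13.6%, 17.3% and 32.4% in wild type skin. A 63-base exon on scaffold GL018779, from 753119 to 753181, was at 74.5%, 67.8% and 59.5% against 36.6%, 32.1% and 38.6%. The most abundant of the 12 by median level was a 36-base exon on chromosome 8, from 33985839 to 33985874, at 59.8%, 60.4% and 61.2% in Prss53-/- skin against 37.0%, 33.2% and 34.6% in wild type skin. That exon had a difference of 25.5 points with a standard error of 7.51 (limma adjusted p = 0.474), and the spread within each genotype was 0.706 and 1.93 points (SD, n = 3 each). Without a mean-variance trend in the moderation its standard error was 2.91 and it was called (limma adjusted p = 0.0327). Its level of both forms was 102, 151 and 35.1 FPKM in Prss53-/- skin and 109, 143 and 86.3 FPKM in wild type skin, so its level varied among the Prss53-/- libraries while inclusion did not.

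The largest negative difference of this group was at a 60-base exon on chromosome 9, from 103782505 to 103782564, with 50.1%, 21.6% and 47.9% in Prss53-/- skin against 86.4%, 83.1% and 86.2% in wild type skin. The difference was -45.4 points with a standard error of 9.40 (limma adjusted p = 0.226). On chromosome 7, an exon of 75 bases from 169125825 to 169125899 was at 19.1%, 42.7% and 9.72% against 70.4%, 69.1% and 45.1%. The 15-base exon on chromosome 18 described above also belongs here, with a difference of -24.8 points, a standard error of 8.97 and a limma adjusted p of 0.648. The other 6 exons had differences of between 18.7 and 26.8 points in either direction, and they were 36 to 150 bases long.

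**Figure D5:**
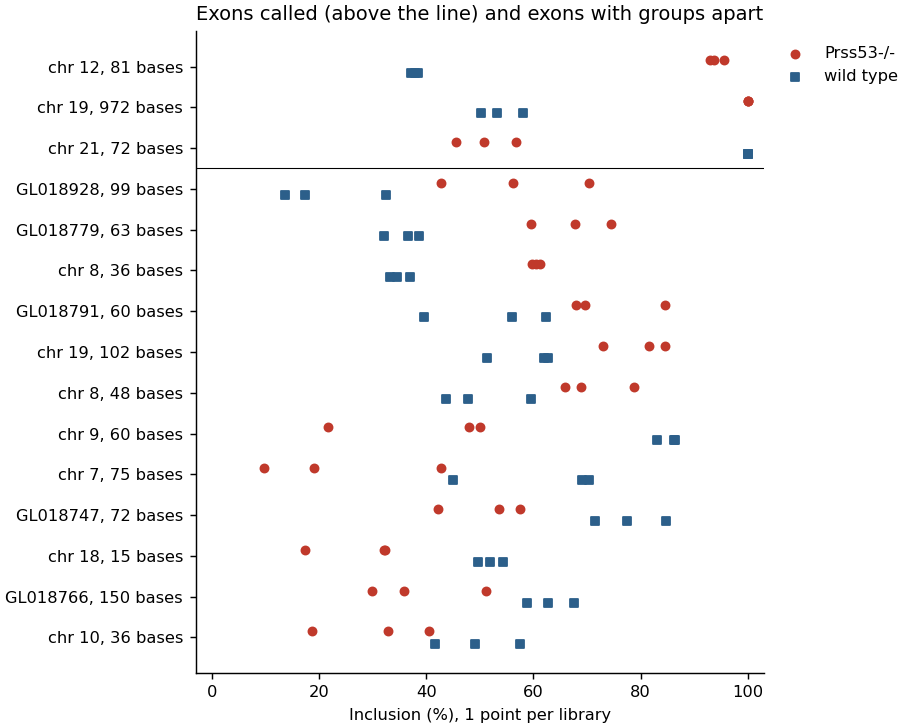
Inclusion (horizontal axis, %) of the 3 called exons above the line and of the 12 uncalled exons with the largest differences below it, 1 point per library, Prss53-/- as red circles above wild type as blue squares. In every exon shown all Prss53-/- libraries lie on 1 side of all wild type libraries, which is how the lower 12 were chosen.

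The level of an exon's 2 forms together was tested on log2(FPKM + 1) over all 3373 cassette exons. None was called (limma, 0 of 3373 at an adjusted p under 0.05, 0.00%), and the lowest adjusted p was 0.254. At an unadjusted p under 0.05 there were 224 frame-preserving exons (12.6%), 63 of them higher (3.54%) and 161 lower (9.04%) in Prss53-/- skin. Over all cassette exons it was 13.3%, with 4.24% higher and 9.01% lower. The median log2 difference was -0.12 for the frame-preserving exons and -0.11 for all cassette exons. With library quality weights, 6 frame-preserving exons were called, 1 higher and 5 lower, and 1 lower exon was called without Prss53-/- replicate 3. None of the 3 exons called for inclusion had a level difference with an unadjusted p under 0.05: the log2 differences were 0.13 for the chromosome 12 exon, -0.41 for the chromosome 19 exon and -0.03 for the chromosome 21 exon.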

How the data were processed

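Each library has 1 deposited table of transcript events with FPKM values that the authors computed, per the file headers. Per the submitters' processing notes, bcl2fastq 2.17.1.14 and cutadapt were used; the aligner, assembler, event caller and build are not stated there. Per the labels' protocols, RNA came from Trizol extracts and libraries from a NEBNext Ultra kit. The tables hold no counts, so depth is unknown. Repeated rows of an event were reduced to 1 per library.

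Included and skipped events were matched by locus and flanking sites (234 included and 628 skipped events had no partner). Shares of FPKM were fitted with limma 3.58.1 in R 4.3.3 (moderation with a mean-variance trend, two-sided, genotype as the only term) over 16309 elements whose forms summed to 1 FPKM or more in every library, with Benjamini-Hochberg adjustment at 0.05. Retained introns were matched by outer boundaries, and first and last exons were divided by the sum of their type at the locus. Standard errors are the moderated ones, of the share difference in points. Tested on simulated data, the fit of inclusion missed most of the changes put in, so exons not called may still differ.

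The members and lists were chosen with earlier results of these data known. Named are every called exon, the 6 uncalled exons in each direction with the largest difference among those with both forms listed at 5 FPKM or more in every library and groups apart, the 8 most abundant with mean inclusion of 20% to 80%, the 6 shortest and 4 longest tested with 10% to 90%, and the 4 loci with the most combinations. Pairs of exons 3 bases apart and arrays of equal length were chosen after their values were seen. Gene and marker lists need gene names and were not analysed here. Without a genome, no exon sequence is given.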

Additional observations from a re-analysis of the deposited data

How the results depend on the processing

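The number of called frame-preserving exons, 3 in the reported fit, was 2 with a minimum of 5 FPKM (1 of them among the 3), 4 with library quality weights and 3 with inexact flanks added. It was 1 with no minimum beyond listing, 15 and 8 on the log2 ratio of the forms with a pseudocount of 0.1 and 1, 8 on the arcsine scale, 7 with cassette exons fitted alone, 1 with both forms listed in all 6 libraries, and 14 without the trend. Leaving out 1 library gave 0 to 24. The 3 exons of the reported fit were among those called on the arcsine scale, on the log2 ratio with a pseudocount of 0.1, for cassette exons alone, without the trend and with quality weights. None of the 3 was called with no minimum beyond listing (limma adjusted p = 0.0516, 0.0516 and 0.0561). With a pseudocount of 1 the chromosome 21 exon alone was (0.00795), the chromosome 12 and 19 exons being at 0.0789 and 0.238. With the replicate number as a block, 0 passed (limma, 81 at an unadjusted p under 0.05). In that fit the 3 exons of the reported fit each had a limma adjusted p of 0.581. The labels state no pairing. In inclusion, same-numbered libraries deviated together with correlations of 0.0041, 0.0387 and 0.0228 across elements. For the log2 level of both forms the correlations were -0.0167, 0.294 and 0.0983 for replicates 1, 2 and 3. Whether same-numbered libraries belong together cannot be told from these values. Among the 3 called and 12 uncalled exons with groups apart, none changed sign in the alternatives run.

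For the level of both forms, 0 frame-preserving exons were called in the reported fit, 6 with library quality weights, and 0 to 1 without 1 library. Mean inclusion was 49.0% in Prss53-/- and 48.7% in wild type skin. It became 50.1% and 49.3% from summed FPKM, where the libraries of the genotypes do not overlap, and 47.6% and 47.0% for exons with both forms listed in every library. With a minimum of 5 FPKM it was 49.3% in Prss53-/- and 49.2% in wild type skin. Over every exon with a defined inclusion it was 48.98% in Prss53-/- and 49.05% in wild type skin, so the order was the other way. The causes of these shifts were not tested. Without 1 library it was 48.8% to 49.3% in Prss53-/- and 48.5% to 48.8% in wild type skin. Low levels limit the shares: the median SD between libraries at 1 to 5 FPKM was 9.02 points in Prss53-/- and 9.17 points in wild type skin, and from 20 FPKM upwards 4.90 and 3.98 points.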

Other observations

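Another 5 frame-preserving exons missed the threshold of the reported fit but passed it in at least 6 of the alternative fits. They were chosen for this after their values were seen, and in each of them 1 genotype had no library that listed 1 of the forms. A 96-base exon on chromosome 16, from 4730808 to 4730903 on the minus strand, was at 100% in each Prss53-/- library and at 43.2%, 22.7% and 21.0% in wild type skin (limma adjusted p = 0.0537). Its included form had 4.66, 6.02 and 8.80 FPKM in Prss53-/- skin against 1.39, 0.891 and 0.640 FPKM in wild type skin, so both forms moved, in opposite directions.

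The outermost 93-base exon of the chromosome 7 array, from 90510184 to 90510276, was at 100% in each Prss53-/- library and at 78.2%, 76.2% and 74.2% in wild type skin (limma adjusted p = 0.114). The flanks are 90500041 and 90512643, so both forms leave out the other exons of the array. The level of this exon's 2 forms was 14.3, 10.1 and 21.1 FPKM in Prss53-/- skin against 42.1, 75.3 and 37.4 FPKM in wild type skin. The libraries without the skipped form were thus also those with the lower level. A 246-base exon on scaffold GL018786, from 374541 to 374786, was at 79.0%, 74.5% and 76.6% in Prss53-/- skin and at 100% in each wild type library (limma adjusted p = 0.119). There the included form was higher in Prss53-/- skin, at 46.3, 33.9 and 53.1 FPKM against 27.3, 24.6 and 30.2 FPKM, and the skipped form was listed there alone, at 12.3, 11.6 and 16.3 FPKM. The remaining 2 were a 750-base exon on chromosome 15 from 61855574 (adjusted p = 0.0530) and a 63-base exon on chromosome 8 from 97471216 (adjusted p = 0.108), whose included forms were listed in wild type skin alone.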
